A study of Drosophila melanogaster with 4 samples.

Results

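The imaginal disc growth factors of *Drosophila melanogaster* are encoded by 6 genes, Idgf1 to Idgf6, and were taken here by their FlyBase symbols. All 6 were found among the 17409 genes counted, and all 6 passed the filter on low counts. Poly(A) RNA had been sequenced from adult males of the Oregon-R-modENCODE strain aged 4 to 5 days, raised at 25 °C under constant light and kept apart from females from the day after they emerged. One group was the testis, and the other was the seminal vesicle, cut so that the terminal epithelium joining it to the testis stayed attached. No mutation, transgene or drug was used in either group, and spike-in RNA from a different pool was added to each tissue. Each tissue had 2 libraries, from dissections on 2 consecutive days, and the number of males pooled is not given in the sources used here.

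Imaginal disc growth factors are secreted glycoproteins of the chitinase family, glycoside hydrolase family 18. They keep the fold of a chitinase but lack an intact catalytic site, so they are counted among the chitinase-like proteins that bind or signal without cutting chitin. They were found in medium conditioned by cultured imaginal disc cells, where they promote growth together with insulin, and later work in larvae tied them to cuticle and its chitin matrix, to wound closure and to the clotting of hemolymph. Fat body and hemocytes are well-known sources of these proteins in larvae. The comparison of the 2 tissues asks whether the sperm-producing and the sperm-storing parts of the male tract transcribe them alike.

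The 4 libraries held between 11120405 and 15528462 gene counts, so that a count of 0 allowed a level of up to 0.175 to 0.321 CPM, the count scaled to a common library size (3 counts of the TMM-scaled total). Libraries of the same tissue correlated at 0.993 in testis and 0.978 in seminal vesicle over the log CPM of 11737 tested genes, which are not independent replicates. The tissue labels were checked on marker genes. Of all tested genes, 44.5% were called higher in testis and 42.1% in seminal vesicle (adjusted p under 0.05, edgeR). A call by itself is therefore common, and the sums are given beside the calls. All 8 male germline markers were higher in testis, where they summed to 5020 and 5340 CPM against 274 and 600 CPM in the seminal vesicle libraries. The higher sum in seminal vesicle replicate 2 came mostly from dj (168 and 346 CPM) and betaTub85D (61.4 and 149 CPM). In the same libraries vas (1.96 and 0.643 CPM) and aly (2 and 0 counts) went the other way. Of 6 epithelial markers 5 were higher in seminal vesicle (217 and 182 CPM in testis, 1920 and 2090 CPM in seminal vesicle), the exception being the transcription factor gene grh. Of 7 muscle markers tested 6 were higher in seminal vesicle, with sums of 180 and 207 CPM in testis and of 3870 and 2910 CPM in seminal vesicle. The exception, sls, made up most of the testis sum and did not pass the test. It stood at 107 and 142 CPM in testis and 88.5 and 119 CPM in seminal vesicle (adjusted p = 0.38, edgeR). In dissected tissue, a change in the number of cells of a type and a change in RNA per cell cannot be told apart.

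Idgf1, Idgf2 and Idgf3 form a cluster. Idgf1 (FBgn0020416; 2L, 16445278 to 16446793), Idgf2 (FBgn0020415; 2L, 16447330 to 16450508) and Idgf3 (FBgn0020414; 2L, 16450907 to 16455194) follow each other on the plus strand within 9917 bp, with 536 bp between the first pair and 398 bp between the second. Idgf4 (FBgn0026415; X, 9927973 to 9930948, minus strand), Idgf6 (FBgn0013763; 2R, 16691022 to 16693751, plus strand) and Idgf5 (FBgn0064237; 2R, 18393666 to 18395282, plus strand) lie alone. Coordinates are those of the Release 6 assembly. The coding sequences are of nearly one size, from 1317 bp in Idgf1 to 1356 bp in Idgf6, while annotated exons run from 1445 bp in Idgf1 to 3954 bp in Idgf3, whose 4 transcripts include long untranslated stretches. Idgf1 and Idgf5 have 1 annotated transcript each, Idgf2 and Idgf4 have 3, and Idgf6 has 2. No exon of the 6 genes overlaps an exon of another counted gene.

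All 6 genes were higher in seminal vesicle than in testis, by 4.86-fold for Idgf5 up to 176-fold for Idgf4. Of all tested genes 86.6% were called, 42.1% on the seminal vesicle side and 44.5% on the testis side, at an adjusted p under 0.05 (edgeR quasi-likelihood F test, Benjamini-Hochberg over all tested genes), so a call by itself is common in these data and the size of the difference says more. All 6 also passed a test for changes over 2-fold (edgeR glmTreat, adjusted p from 4.2e-05 to 0.00522), which 33.5% of tested genes passed toward seminal vesicle. With spike-in factors 4 passed that test (adjusted p = 0.091 for Idgf2 and 0.171 for Idgf5, edgeR), and Idgf5 also missed it with DESeq2 (adjusted p = 0.0654) and without testis replicate 1 (adjusted p = 0.0595, edgeR). In each of the 6 genes both seminal vesicle libraries stood above both testis libraries, as they did in 46% of tested genes. The median log2 fold change, seminal vesicle minus testis, was 4.03 over the 6 genes and -0.11 over all tested genes.

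**Figure D1:**
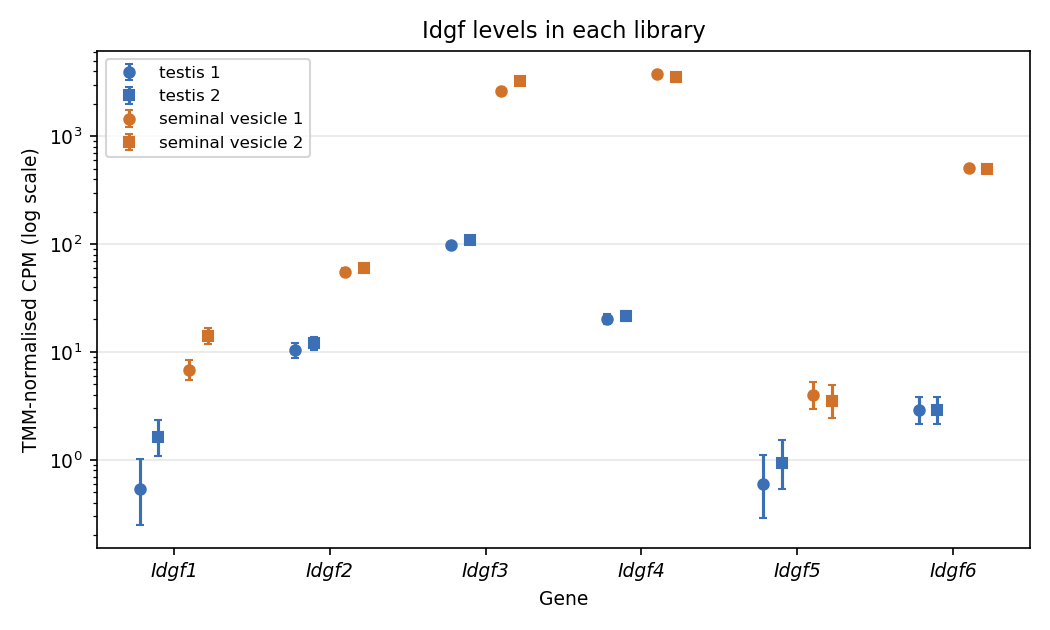
TMM-normalised CPM of each Idgf gene (log axis) in the 2 testis libraries (blue) and the 2 seminal vesicle libraries (orange), with 95% Poisson intervals for counting error only. In every gene the seminal vesicle points lie above the testis points, from 4 CPM or less in Idgf5 to 3780 CPM in Idgf4, and the gap is widest in Idgf4 and Idgf6.

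The 2 genes with the largest differences were Idgf4 and Idgf6. Idgf4 was counted 333 and 369 times in the testis libraries and 46374 and 33072 times in the seminal vesicle libraries, which gave 20.1 and 21.5 CPM in testis and 3780 and 3540 CPM in seminal vesicle after TMM scaling. The replicates of a tissue lay close together, and the lowest seminal vesicle level was 165-fold the highest testis level. Its log2 fold change was 7.46 ± 0.35 (SE; adjusted p = 3.12e-05, edgeR). By level per kb of exon it ranked 30 of 11570 genes with an annotated length in seminal vesicle and 4593 in testis, so a gene of middling level in one tissue was among the most abundant transcripts of the other.

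Idgf6, first described as DS47, a chitinase-like protein secreted by a macrophage-like fly cell line, was much scarcer. It had 48 and 50 counts in testis and 6222 and 4615 counts in seminal vesicle, or 2.9 and 2.92 CPM against 508 and 495 CPM. Its log2 fold change was 7.43 ± 0.32 (adjusted p = 3.12e-05, edgeR), at a rank per kb of exon of 309 in seminal vesicle and 8759 in testis. Idgf4 and Idgf6 thus sat far apart in level but moved by nearly the same factor. The level of Idgf4 per kb of exon was 6.85 and 7.29 times that of Idgf6 in the testis libraries and 7.36 and 7.08 times in the seminal vesicle libraries. The difference of their log2 fold changes was 0.03, and it ran from -0.04 to 0.10 over the 4 pairings of a seminal vesicle with a testis library. Of all tested genes, 1.04% had a log2 fold change at or above that of Idgf6.

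Idgf3, whose product is known from the larval hemolymph clot and from wound healing, came next. It was counted 1621 and 1864 times in testis and 32268 and 30256 times in seminal vesicle, or 97.8 and 109 CPM against 2630 and 3240 CPM. The log2 fold change was 4.83 ± 0.33 (adjusted p = 5.67e-05, edgeR). Per kb of exon, the level of Idgf4 was 0.443 and 0.427 times that of Idgf3 in the testis libraries and 3.1 and 2.36 times in the seminal vesicle libraries, so the order of this pair was opposite in the tissues. By coding length the ratios were 0.205 and 0.198 in testis and only 1.43 and 1.09 in seminal vesicle. The log2 fold change of Idgf3 minus that of Idgf4 was -2.63, with a range of -2.86 to -2.41 over the library pairings. Per kb of exon it ranked 112 in seminal vesicle and 3017 in testis.

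Its neighbours in the cluster, Idgf2 and Idgf1, were far less abundant. Idgf2 stood at 10.4 and 12.1 CPM in testis and 55.5 and 60.2 CPM in seminal vesicle, a log2 fold change of 2.36 ± 0.18 (adjusted p = 8.23e-05, edgeR). Although Idgf2 and Idgf3 are only 398 bp apart on one strand, the log2 fold change of Idgf2 minus that of Idgf3 was -2.47, with a range of -2.59 to -2.33 over the library pairings. Per kb of exon, Idgf2 had 0.234 and 0.246 of the Idgf3 level in the testis libraries but 0.0464 and 0.0409 in the seminal vesicle libraries.

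Idgf1 varied most between replicates. It was counted 9 and 28 times in testis and 84 and 132 times in seminal vesicle, or 0.543 and 1.63 CPM against 6.86 and 14.1 CPM. Replicate 2 was higher than replicate 1 in both tissues, 3.01-fold in testis (95% counting interval 1.38 to 7.25) and 2.06-fold in seminal vesicle (1.56 to 2.75), and none of the other 5 genes had a replicate ratio above 1.55. The log2 fold change of Idgf1 was 3.23 ± 0.57 (adjusted p = 0.00242, edgeR). Without testis replicate 2 it was 4.30 (19.7-fold) and without seminal vesicle replicate 2 it was 2.63 (6.19-fold). Its direction was the same in both of these fits.

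Idgf5 was the scarcest member in seminal vesicle. Its 10 and 16 testis counts and 49 and 33 seminal vesicle counts corresponded to 0.603 and 0.933 CPM against 4 and 3.54 CPM. The log2 fold change was 2.28 ± 0.34 (adjusted p = 0.0011, edgeR). The 2 testis libraries differed by less than the counting error (ratio 1.55, interval 0.66 to 3.81). Idgf5 and Idgf2 differed in log2 fold change by 0.08, with a range across 0 over the library pairings.

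**Figure D2:**
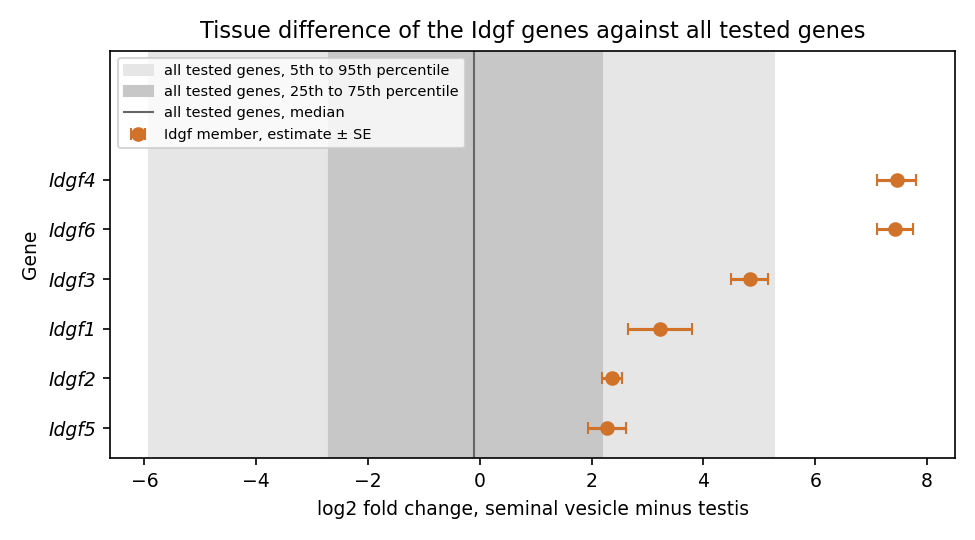
Log2 fold change of each Idgf gene, seminal vesicle minus testis, with its standard error, over bands that give the spread of all 11737 tested genes. Idgf4 (7.46) and Idgf6 (7.43) lie beyond the 95th percentile of all genes (5.26), Idgf3 (4.83) lies just inside it, and Idgf2 (2.36) and Idgf5 (2.28) lie near the 75th percentile (2.18).

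Levels of the genes were compared with each other per kb of annotated exon (RPKM on TMM-scaled library sizes). Mean RPKM in testis was 26.1 ± 1.96 (SD, n = 2) for Idgf3, 11.3 ± 0.556 for Idgf4, 6.27 ± 0.693 for Idgf2 and 1.6 ± 0.00853 for Idgf6. Idgf1 (0.753 ± 0.534) and Idgf5 (0.514 ± 0.156) overlapped at the bottom of that order. In seminal vesicle the order was Idgf4 (2000 ± 92.9), Idgf3 (743 ± 109), Idgf6 (277 ± 5.18), Idgf2 (32.2 ± 1.86), Idgf1 (7.27 ± 3.57) and Idgf5 (2.52 ± 0.219), and no neighbours in it overlapped. Summed RPKM was 43.8 and 49.4 in the testis libraries and 3050 and 3070 in the seminal vesicle libraries, a ratio of means of 65.7. This ratio depends on the length used, and by summed CPM, not divided by length, it was 51.2. As a share of all gene counts the family took 0.0156% and 0.0163% in testis and 0.64% and 0.618% in seminal vesicle.

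The make-up of the family differed between the tissues by more than between replicates. In testis Idgf3 supplied 56.4% and 55.7% of the summed RPKM and Idgf4 25% and 23.8%. In seminal vesicle Idgf4 supplied 67.7% and 62.9% and Idgf3 21.8% and 26.7%. Idgf6 supplied 3.65% and 3.26% in testis and 9.2% and 8.89% in seminal vesicle. Idgf2 supplied 13.2% and 13.7% of the sum in testis and 1.01% and 1.09% in seminal vesicle, although its own level was higher there. None of these shares overlapped between the tissues, and with 2 libraries a group the exact two-sided permutation test cannot go below p = 0.333, the value found for each. Because Idgf3 has far more annotated exon than the others, its share depends on the length used: per kb of coding sequence it was 74% and 73.6% in testis and 37.8% and 44.2% in seminal vesicle, where Idgf4 was still the larger with 54.2% and 48.2%.

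**Figure D3:**
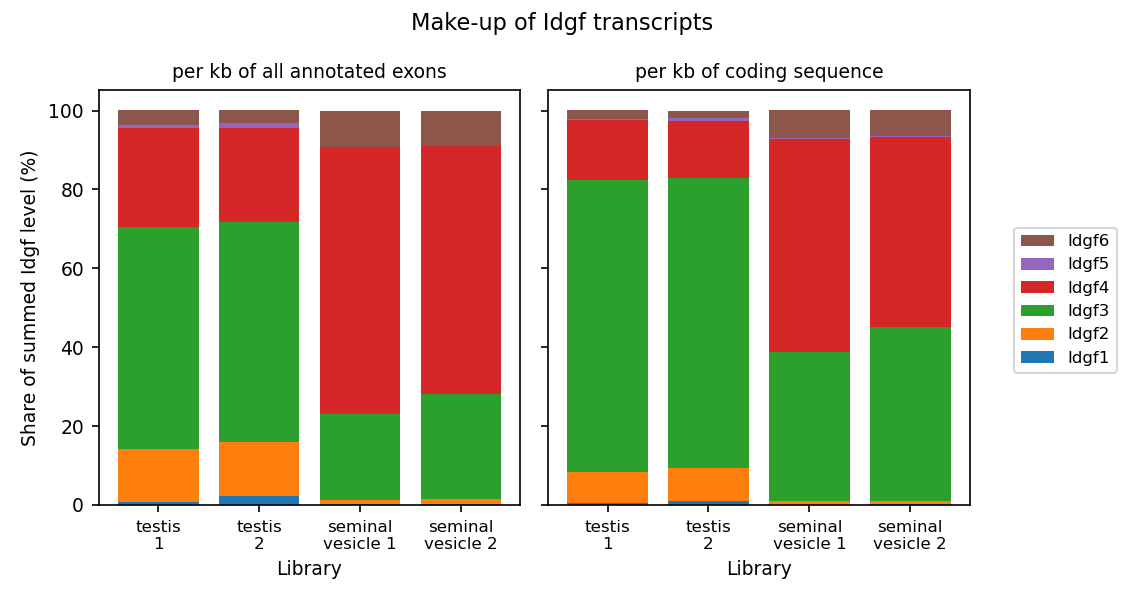
Share of each Idgf gene in the summed level of the 6 genes, in each library, per kb of all annotated exons (left) and per kb of coding sequence (right). Idgf3 (green) is the largest part in both testis libraries and Idgf4 (red) in both seminal vesicle libraries by either length, and the Idgf3 part is larger on the coding scale.

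The testis signal of the most changed members was small beside that of the seminal vesicle. Mean testis CPM was 0.568% of mean seminal vesicle CPM for Idgf4 and 0.58% for Idgf6, against 3.51% for Idgf3, 10.4% for Idgf1, 19.4% for Idgf2 and 20.4% for Idgf5. The 2 most abundant seminal vesicle transcripts, CG18628 and Jhbp5, stood in testis at 0.184% and 0.898% of their seminal vesicle level. Whether traces of seminal vesicle tissue in the testis dissections account for the Idgf4 and Idgf6 counts there was not tested.

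Markers of the classical larval sources were read beside these values, where 42.1% of all tested genes were higher in seminal vesicle. Of 8 hemocyte markers, 4 passed the filter on low counts and all 4 were higher in seminal vesicle, with a sum over the 8 genes of 47.9 and 43.1 CPM in testis and 550 and 443 CPM in seminal vesicle. That sum came mostly from the scavenger receptor gene crq (29.7 and 253 CPM, testis and seminal vesicle means) and the peroxidasin gene Pxn (2.78 and 204 CPM). The GATA factor gene srp averaged 10.2 and 30.1 CPM, and its call was lost with spike-in scaling (adjusted p = 0.153, edgeR). Hml, a hemolectin of hemocytes and the clot, averaged 2.3 and 6.45 CPM, and its call was lost with spike-in scaling (adjusted p = 0.286, edgeR) and without testis replicate 1 (0.178), testis replicate 2 (0.0859) or seminal vesicle replicate 1 (0.0587). The 4 untested markers were low: NimC1 averaged 0.446 and 1.45 CPM and Sr-CI 0.15 and 0.962 CPM, eater had 1 and 0 counts in testis and 2 and 0 in seminal vesicle, and He had 0 counts in every library. Of 7 fat body markers, 2 passed the filter. The lipophorin gene apolpp was higher in seminal vesicle (43 ± 2.3 and 177 ± 34.3 CPM). The storage protein gene Lsp2 did not pass the test (2.98 and 2.46 CPM, adjusted p = 0.499, edgeR). With spike-in scaling Lsp2 was lower in seminal vesicle (log2 fold change -1.33, adjusted p = 0.00354, edgeR). Its log2 fold change was 0.12 or -0.81 without seminal vesicle replicate 1 or 2. Fbp1 had 0 counts in every library. Summed over the 7 genes, fat body markers stood at 44.3 and 48.9 CPM in testis and at 155 and 206 CPM in seminal vesicle. The part of such cells in the Idgf levels was not tested beyond these values.

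Markers of adjoining tissues also differed, where 42.1% of all tested genes were higher in seminal vesicle and 44.5% in testis. The 4 counted markers of the ejaculatory duct and bulb were all higher in seminal vesicle and summed to 32.7 and 30.6 CPM in testis and 1090 and 988 CPM in seminal vesicle, nearly all of it from EbpIII (means of 29.9 and 1020 CPM). Of 8 accessory gland markers 6 were tested, 4 were higher in seminal vesicle and 1 in testis, with sums of 24.5 and 21.9 CPM and of 50.4 and 22.4 CPM in the testis and seminal vesicle libraries. Tracheal markers (3 counted, 2 higher in seminal vesicle) summed to 15.6 and 16.2 CPM and to 28.4 and 20 CPM. Of 6 cyst cell and hub markers 4 were higher in testis and 1 in seminal vesicle, with sums of 90.3 and 98.3 CPM and of 75 and 72.4 CPM. Their part in the Idgf levels was not tested.

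The enzymes of the same glycoside hydrolase family did not share this pattern as a group. Of 10 chitinase genes counted, 5 passed the filter. In 3 of them the seminal vesicle was higher (against 42.1% of all tested genes) and in 2 the testis (against 44.5%), at a median log2 fold change of 1.19. The most abundant by CPM and most changed was Cht12, a chitinase gene that went the other way from the Idgf genes, with 281 ± 17.8 CPM in testis and 20.5 ± 9.44 CPM in seminal vesicle (log2 fold change -3.78 ± 0.40, adjusted p = 0.000304, edgeR). Cht10 was also higher in testis (10.9 and 4.56 CPM), and Cht11, Cht6 and Cht2 were higher in seminal vesicle at means of no more than 13.4 CPM there. The 10 chitinase genes summed to 289 and 313 CPM in testis and to 46.1 and 65.7 CPM in seminal vesicle. With scaling to the spike-in RNA, 1 chitinase gene was higher in seminal vesicle.

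Genes that make, modify or organise chitin were mostly higher in seminal vesicle. Of 16 counted, 14 were tested, 13 were higher in seminal vesicle and the remaining one, the deacetylase gene verm, did not pass the test (it was lower in seminal vesicle with spike-in factors, adjusted p = 3.33e-05, with library size only, 0.0127, and without seminal vesicle replicate 1, 0.00718, edgeR). Their median log2 fold change was 3.62, and 42.1% of all tested genes were called on the seminal vesicle side. With scaling to the spike-in RNA, 10 of the 14 were higher in seminal vesicle. The most abundant by CPM was Cda5, which encodes a chitin deacetylase-like protein, at 1.63 and 1.81 CPM in testis and 145 and 250 CPM in seminal vesicle (log2 fold change 6.83 ± 0.41, adjusted p = 4.92e-05, edgeR). The most changed was its relative Cda4, with 9 and 4 counts in testis and 901 and 769 in seminal vesicle (log2 fold change 7.62 ± 0.33, and 8.38 without testis replicate 1). The chitin synthase gene kkv stood at means of 7.73 and 158 CPM, and exp, which is needed with it to deposit chitin, at 0.267 and 20.4 CPM. The partly redundant partner of exp, reb, had 2 testis counts in all against 169, a count ratio of 132 (95% counting interval 36 to 1100).

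The other secreted growth factor family known from fly cell culture, the adenosine deaminase-related growth factors, was split. Adgf-A, Adgf-C and Adgf-D were higher in seminal vesicle (against 42.1% of all tested genes). Adgf-A2, Adgf-B and Adgf-E were higher in testis (against 44.5%). Such a split is near the shares over all tested genes. The median log2 fold change of the list was 0.37. The most abundant by CPM, Adgf-A2, stood at 448 ± 14.2 CPM in testis and 100 ± 48.9 CPM in seminal vesicle (log2 fold change -2.16 ± 0.40, adjusted p = 0.00303, edgeR), and at -2.78 without seminal vesicle replicate 2. Adgf-D had the largest difference, 0.208 ± 0.0468 against 5.51 ± 0.398 CPM.

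Idgf proteins act with insulin on cultured cells, so the insulin pathway was read as well. Of 16 core genes listed, 3 were not analysed here. Of the 13 counted, 9 passed the test on the seminal vesicle side (against 42.1% of all tested genes), 2 passed it on the testis side (against 44.5%) and 2 did not pass. Their median log2 fold change was 0.87. ImpL2, a secreted protein that binds insulin-like peptides, had the largest difference, with 12.1 ± 1.46 CPM in testis and 122 ± 12.5 CPM in seminal vesicle (log2 fold change 3.33 ± 0.22, adjusted p = 5.41e-05, edgeR). The kinase gene Pdk1 was the most abundant by CPM and was higher in testis (321 ± 28.3 against 108 ± 33.1 CPM). With scaling to the spike-in RNA, 4 of the 13 were higher in seminal vesicle, as were 3272 of all 11737 tested genes. With the replicate block 8 of the 13 were higher there, since Rheb lost its call (adjusted p = 0.0836, edgeR). Without testis replicate 1, 1 of the 13 was higher in testis.

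Transcripts of genes whose proteins share the larval clot with Idgf3 were mostly higher in seminal vesicle. Of 8 counted, 7 were tested, 6 were higher there (against 42.1% of all tested genes) and PPO2 did not pass the test. With scaling to the spike-in RNA, 4 of the 7 were higher there. The most abundant by CPM was apolpp, given above, and the largest difference was in the transglutaminase gene Tg, whose product crosslinks the clot, with 11 and 2 counts in testis and 235 and 236 in seminal vesicle. Its log2 fold change was 5.81 ± 0.48, and 7.51 or 5.12 without testis replicate 1 or 2. Within this list fon (4.27 and 66.7 CPM) and Glt (2.07 and 16.8 CPM) were also higher in seminal vesicle. The log2 fold change of fon, 3.97, was 3.28 without seminal vesicle replicate 1, and PPO2 passed the test without seminal vesicle replicate 2 (log2 fold change 2.85, adjusted p = 2.72e-10, edgeR) but stood at -1.11 without seminal vesicle replicate 1.

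**Figure D4:**
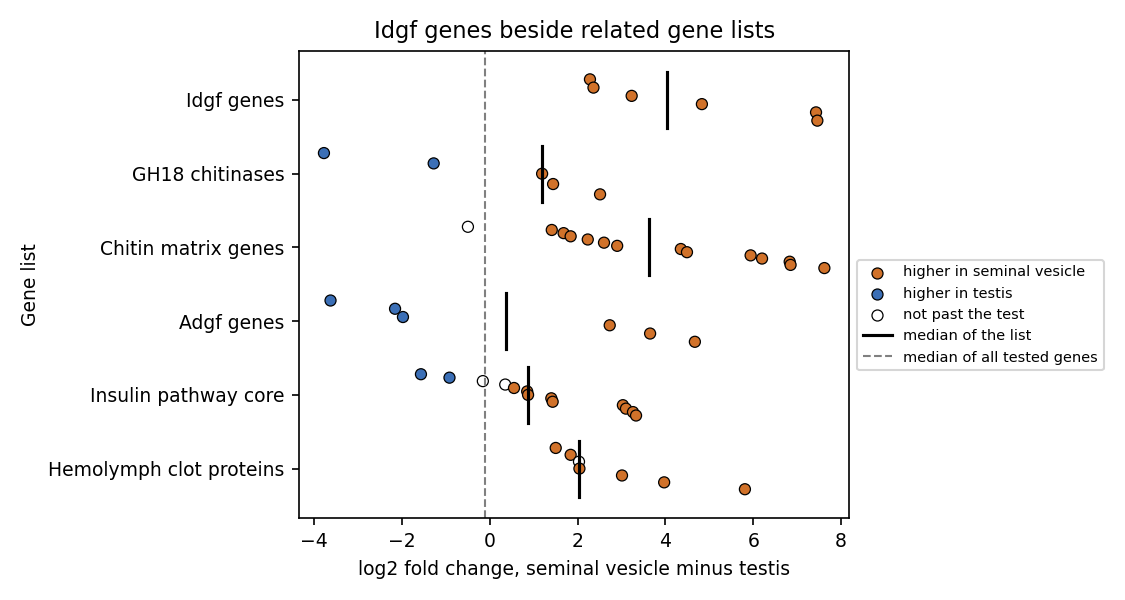
Log2 fold change, seminal vesicle minus testis, of each tested gene in the Idgf family and in 5 related lists, coloured by the outcome of the edgeR test, with a bar at the list's median and a dashed line at the median of all tested genes (-0.11). All 6 Idgf genes and 13 of 14 chitin matrix genes lie on the seminal vesicle side, while chitinases and Adgf genes lie on both sides.

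Several members share their place with other genes. Idgf1 and part of the span of Idgf2 lie within CG5888, on its opposite strand and clear of its exons. CG5888 itself stood at 2.41 and 2.57 CPM in testis and 44.6 and 44.8 CPM in seminal vesicle (log2 fold change 4.16 ± 0.18, adjusted p = 3.12e-05, edgeR). Idgf6 lies in the same way within Pgant9, which encodes an enzyme that starts O-linked sugar chains and stood at 54.5 ± 3.63 CPM in testis and 790 ± 124 CPM in seminal vesicle (log2 fold change 3.86 ± 0.30). The sources used here do not say whether reads were counted by strand, so this was checked on the counts. At least 10 counts over the 4 libraries were found for 80 of 124 genes that sit wholly within exons of an opposite-strand gene, and for 2 of 352 genes within exons of a same-strand gene. Counting by strand would leave the former countable and the latter not.

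Outside the cluster on 2L the neighbours went separate ways. The nearest counted gene to its left, jhamt, which encodes the enzyme that completes juvenile hormone, lies 78238 bp away and had 1 testis count against 100, a count ratio of 156 (95% counting interval 27.4 to 6230). The nearest to its right, the transcription factor gene dac, lies 11317 bp away and was higher in testis (10.4 ± 0.761 against 0.674 ± 0.26 CPM, log2 fold change -3.98 ± 0.32, adjusted p = 9.52e-05, edgeR). No counted gene lies within 10 kb of Idgf4, and its nearest neighbours CG1986 and CG1791 had 0 counts in all 4 libraries. The nearest genes beside the Pgant9 span that holds Idgf6, CG34458 and lncRNA:CR43104, had 1 count each in all.

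Idgf5 lies between a group of bomanin genes, which encode short immune peptides induced by Toll signalling, and a group of glutathione S-transferase genes. Of 16 counted genes within 10 kb, 12 were tested, 11 were higher in seminal vesicle (against 42.1% of all tested genes) and GstE2 did not pass the test. The 7 tested bomanin genes had fitted log2 fold changes from 3.91 to 8.40, all above that of Idgf5. BomS3, the highest of them by CPM in seminal vesicle, stood at 0.603 and 0.7 CPM in testis and 24.9 and 29 CPM in seminal vesicle. BomT2 had 0 testis counts against 67, and was at least 34.9-fold higher by a floor of 3 counts over both testis libraries. On the other side GstE10, the nearest gene at 1355 bp, had 3 and 10 counts in testis and 22 and 30 in seminal vesicle, and its log2 fold change of 2.64 ± 0.59 was 3.77 without testis replicate 2. BomS6, the nearest bomanin gene at 3036 bp, had 1 and 6 testis counts against 85 and 37 (log2 fold change 4.68 ± 0.62, and 6.39 or 4.02 without testis replicate 2 or 1). The calls of GstE1, GstE3 and GstE5 were lost with spike-in scaling (adjusted p = 0.15, 0.844 and 0.705, edgeR), where GstE5 had a log2 fold change of -0.15, and that of GstE5 also with library size only (adjusted p = 0.0784, edgeR). Without testis replicate 1 or 2 the calls of GstE3 (adjusted p = 0.0619 or 0.0508, edgeR) and GstE5 (0.0781 or 0.0952) were lost. GstE2 was lower in seminal vesicle with spike-in scaling (log2 fold change -1.08, adjusted p = 0.0246, edgeR). The log2 fold change of BomS4, 3.91, was 3.09 or 6.75 without testis replicate 1 or 2.

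**Figure D5:**
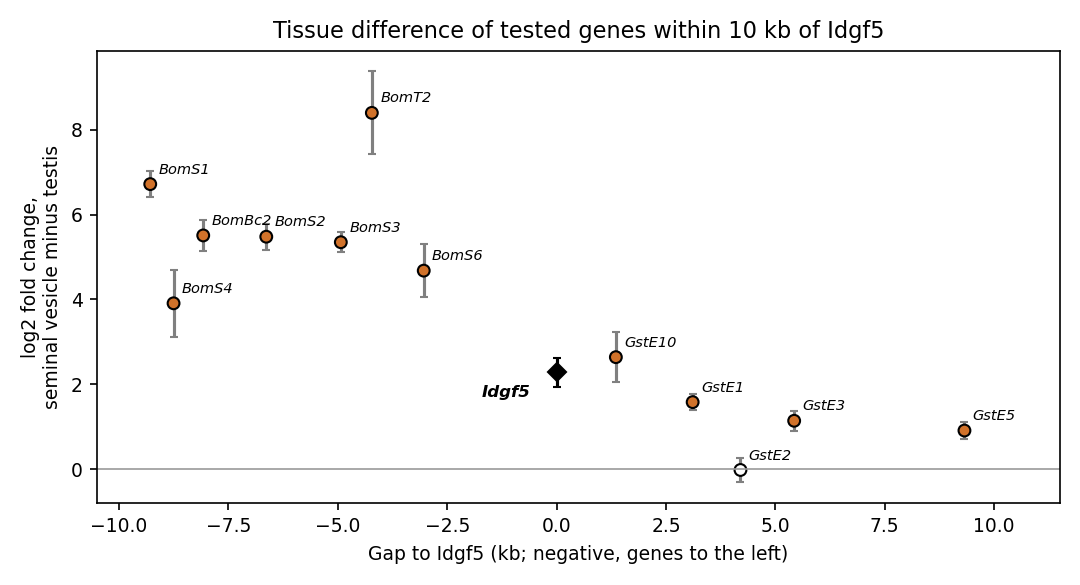
Log2 fold change, seminal vesicle minus testis, with its standard error, of the 12 tested genes within 10 kb of Idgf5 (black diamond), against the gap to Idgf5 in kb. The bomanin genes on the left lie between 3.91 and 8.40, the GstE genes on the right between -0.02 and 2.64, and Idgf5 at 2.28; the fitted value of BomT2 depends on the prior count because it had 0 testis counts.

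The genes whose pattern was most like that of a member were found over the 4 libraries, with 11737 genes searched. The measure was the Euclidean distance between log2 CPM values centred on each gene's mean. These values carried a prior count of 2, which shrinks differences at low counts. For Idgf6 the nearest was NLaz, which encodes a lipocalin (distance 0.17), and for Idgf4 NLaz was the second nearest (0.27) after CG17032 (0.19). NLaz stood at 23.9 and 21.7 CPM in testis and 3650 and 3320 CPM in seminal vesicle, and CG15117 was the second nearest to Idgf6 (0.19). For Idgf3 the nearest were the junction gene Gli (0.073) and the mannosidase gene beta-Man (0.088), and for Idgf2 CG17271 (0.05) and CG7737 (0.073). Idgf5 was closest to lncRNA:CR44127 and Alp11 (0.12 each). Of these, lncRNA:CR44127 had 2 and 4 testis counts. Its log2 fold change of 2.75 was 2.43 or 3.35 without testis replicate 1 or 2. Idgf1 was closest to the ejaculatory bulb protein gene EbpII (0.18) and to Tsp42Ek (0.21), both with no more than 4 counts in a testis library. EbpII stood at 0 and 0.233 CPM in testis and 1.14 and 2.57 CPM in seminal vesicle. Tsp42Ek stood at 0 and 0.175 CPM and at 1.22 and 2.36 CPM. The log2 fold change of EbpII, 3.82, was 2.96 or 7.56 without testis replicate 1 or 2. That of Tsp42Ek, 4.16, was 3.31 or 7.52 in the same fits. Like Idgf1, both were higher in replicate 2 of each tissue, a likeness that the search over these same libraries selects for.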

How the data were processed

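Each file held the raw count of reads per gene in 1 library, deposited by the authors without normalisation. Per the labels' protocols, libraries were made from 200 ng of total RNA with a stranded poly(A) kit. The submitters' processing notes name HTSeq 0.6.1p1, TopHat2 2.1.0 and CASAVA 1.8.2, with no settings, and the series text names FlyBase release 6.06. The 96 spike-in rows and 5 summary rows (11% to 14.2% of a file's counts) entered neither library sizes nor tests. Spike-in counts came to 0.033% to 0.06% of gene counts.

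Positions, exon lengths and neighbours within 10 kb came from Ensembl release 115, which uses the same Release 6 assembly and held 17172 of the 17409 gene identifiers. Counts were filtered with filterByExpr (minimum count 10, minimum total 15), scaled with TMM and tested in edgeR 4.0.16 (R 4.3.3) with the robust quasi-likelihood F test and glmTreat, at an adjusted p of 0.05. Each SE was taken as the absolute log2 fold change divided by the root of its F statistic. CPM outside the tested set use the same library sizes. Reads carried no molecular identifiers and are not independent molecules, so intervals and floors describe counting error alone. The steps were tested on simulated counts.

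The 6 genes, the 5 related lists and the 9 marker lists were chosen with earlier results of these data known. Of 116 list entries, 114 matched a gene identifier, 4 of them by synonym; 110 were counted and 6 were not analysed here. The other named genes follow a rule: in each related list the most abundant and the most changed called gene, 2 nearest patterns per member, and the nearest genes on each side. Cht10, Cht11, Cht6, Cht2, kkv, exp, reb, verm, fon, Glt, PPO2, Rheb, the other Adgf genes, the marker genes, and the genes around Idgf5 other than GstE10 and BomS6 were named with their values in view. Alternative fits used size factors from DESeq2, plain library sizes, spike-in factors, 2 other filters, DESeq2 1.42.0, limma 3.58.1 voom, the replicate block, each library left out, and the removal of CG18628, Jhbp5 and the genes of ribosomal and mitochondrial RNA. Per the series text the replicates came from dissections on 2 consecutive days, from which a shared day for equal numbers was inferred. The replicate differences of the 2 tissues correlated at 0.07 over genes.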

Additional observations from a re-analysis of the deposited data

How the results depend on the processing

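All 6 Idgf genes kept their direction and their call in each of the 77 combinations of gene and alternative that gave a value, though not always over 2-fold (4 genes with spike-in factors, 5 with DESeq2 and 5 without testis replicate 1); Idgf5 did not pass the filter of 5 CPM in 2 libraries. The lowest log2 fold changes came with spike-in factors, from 1.25 for Idgf5 to 6.40 for Idgf4, where the median of all tested genes moved from -0.11 to -1.17; it was -0.49 with library size only. The highest adjusted p was 0.0257 (Idgf5 without testis replicate 1, edgeR). With the replicate block all 6 genes were called, with a median log2 fold change of 4.06, and none of the 58 other named genes that were refitted changed its call; of the related list genes Rheb, in the insulin pathway, lost its own (adjusted p = 0.0836, edgeR). Fits that leave out a library have 1 library in a tissue and assume that it varies like the other tissue. Of the related list genes, 34 were higher in seminal vesicle, against 22 with spike-in factors, while the number over all tested genes fell from 4944 to 3272. The pools differ between the tissues, so spike-in scaling cannot be told apart from tissue. The Idgf3 share in testis (56.1%) was 73.8% by coding length and 73.7% without length, and the Idgf4 share in seminal vesicle (65.3%) was 51.2% and 51.1%, since Idgf3 has 3954 bp of exon. Over these 58 genes, 712 of 739 values kept direction and call, 15 lost the call, 7 gained it and 5 reversed: GstE2 (from -0.04 to 0.13 over the fits that leave out a library), GstE5 (-0.15 with spike-in factors), PPO2 (from -1.11 to 2.85 over the fits that leave out a library) and Lsp2 (from -0.81 to 0.12 over the same fits). Idgf1 and Idgf5 rest on 9 to 28 testis counts a library, which limits the size of their folds. The cause of these changes was not tested, apart from the length of Idgf3.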
